A study of Mus musculus with 6 samples.

Results

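Cholesterol and fatty acid synthesis was followed through 33 genes in mouse skin. They were taken by gene symbol from the authors' table of 18824 genes: 5 genes of the SREBP control system, 7 of the mevalonate arm, 11 of the sterol arm, the sterol transfer gene Stard4, and 9 genes of fatty acid synthesis, desaturation and elongation. All 33 were present, and all 33 passed the filter on low values. RNA-seq was run on skin from what the series title calls the MC903 model; MC903 is an analogue of vitamin D that causes dermatitis when it is applied to mice, and no sample label says which libraries received it. The genotype label of all 6 libraries is C57BL/6j. The CCR3 group (replicates 1, 2 and 4) received a compound on which the labels disagree: the series text gives SB328437, which blocks the chemokine receptor CCR3, whereas the sample label gives SC144, which blocks gp130, a subunit of cytokine receptors. The VEH group (replicates 1, 2 and 4) received vehicle. The labels give no age, dose or time, and no comparison with skin without MC903 was made here. Whether each replicate was 1 mouse is not stated in the labels, so the p-values speak of variation among libraries, which may be technical.

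Cells make cholesterol from acetyl-CoA by way of mevalonate, squalene and lanosterol, and fatty acids from the same precursor. The transcription factors of the SREBP family switch on both sets of enzymes when sterols run short: SCAP carries the precursor out of the endoplasmic reticulum, and the INSIG proteins hold it there when sterols are plentiful. In skin, keratinocytes use the products for the permeability barrier, sebocytes for sebum and dermal adipocytes for storage. Bulk RNA cannot tell fewer cells of a type from less RNA per cell.

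SREBP factors bind sterol regulatory elements, often beside CCAAT boxes, which are bound by the factor NF-Y. Promoter windows of RefSeq genes on build GRCm38.p6, of 300 bases with 250 before the start, were found for 26 of the 33 members, in 35 windows. Fdps, Fdft1, Sqle, Stard4, Scd1, Scd2 and Fads1 had none. Each window was searched on both strands. A gene was counted when any of its windows held the motif. The core of the sterol regulatory element, searched as TCACNCCAC, was found in 1 member, Hmgcs1, against 1.4% of 10371 tested genes that had a window. By window this was 1 of 35 member windows, against 1.24% of 32841 windows of all genes. The CCAAT box was found in 21 of 26 members (80.8%), against 42.6% of tested genes, and in 22 of 35 member windows, against 37.42% of all windows. An Sp1 box, searched as GGGCGG, was found in 22 members (84.6%), against 66.5% of tested genes, and in 26 of 35 member windows, against 35.67% of all windows. An E-box, searched as CACGTG, was found in 5 members (19.2%), against 11.5% of tested genes, and in 6 of 35 member windows, against 7.15% of all windows. The motifs were counted separately, and no overlap between motifs was removed. A match is only a match of letters, and no match says only that these letters are not in the window.

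For 4 of these genes the window is printed from 250 to 41 bases before the annotated start, read 5′ to 3′ on the gene's strand. Hmgcs1 is the member with the sterol regulatory element core, Lss and Hsd17b7 stand for the sterol arm described further on, and Fasn for the fatty acid arm. Capitals mark the sterol regulatory element core and the CCAAT boxes, which read ATTGG here where the box is on the opposite strand. The core in Hmgcs1 begins 137 bases before the start, between CCAAT boxes that begin at 176 and 45 bases. Fasn (chr11:120824588-120824797, minus strand) holds 3 CCAAT boxes, 2 of which overlap, Hsd17b7 (chr1:169969246-169969455, minus strand) holds 2, and Lss (chr10:76531355-76531564, plus strand) holds 1. Hmgcs1 lies at chr13:119690101-119690310 on the plus strand.
Hmgcs1: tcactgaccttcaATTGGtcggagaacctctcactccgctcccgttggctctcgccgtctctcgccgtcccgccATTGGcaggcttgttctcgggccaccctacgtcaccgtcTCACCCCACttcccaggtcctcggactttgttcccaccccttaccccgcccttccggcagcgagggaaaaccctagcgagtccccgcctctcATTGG
Lss: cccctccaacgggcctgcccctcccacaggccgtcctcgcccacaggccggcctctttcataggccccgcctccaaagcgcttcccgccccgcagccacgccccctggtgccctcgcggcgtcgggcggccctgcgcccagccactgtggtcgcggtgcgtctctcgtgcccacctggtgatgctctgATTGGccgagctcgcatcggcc
Hsd17b7: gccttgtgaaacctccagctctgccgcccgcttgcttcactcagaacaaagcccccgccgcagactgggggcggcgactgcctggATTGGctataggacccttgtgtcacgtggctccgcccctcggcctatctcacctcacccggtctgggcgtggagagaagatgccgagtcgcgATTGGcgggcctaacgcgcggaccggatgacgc
Fasn: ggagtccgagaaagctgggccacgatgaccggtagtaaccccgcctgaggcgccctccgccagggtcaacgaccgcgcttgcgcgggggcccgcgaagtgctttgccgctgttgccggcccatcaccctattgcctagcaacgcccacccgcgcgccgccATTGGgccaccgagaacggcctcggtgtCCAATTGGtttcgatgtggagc

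None of the 33 genes passed the test. Levels were compared on the log2(FPKM + 1) scale, where FPKM is a number of fragments divided by transcript length and by the reads mapped, with limma and Benjamini-Hochberg adjustment over 13063 tested genes. Among all tested genes 3.74% were called at an adjusted p under 0.05, 178 higher and 310 lower in CCR3 (1.36% and 2.37%). These counts were 230 and 261 after median centring, and 158 and 173 after scaling to an equal FPKM sum. At an unadjusted p under 0.05 limma gave 4 members higher and 0 lower, against 8.03% higher and 15.1% lower among all tested genes. In 3 members, Scap, Dhcr7 and Acaca, every CCR3 value lay above every VEH value, against 10.4% of all tested genes, and in no member did every CCR3 value lie below, against 18.3%.

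The log2 difference was positive in 25 members and negative in 8, with a median of 0.06, against a median of -0.04 and 40.2% positive over all tested genes. Differences ran from -0.24 (Fads1) to 0.32 (Dhcr7). With all 6 libraries the 95% interval lay within 1.5-fold in either direction for all 33 members. The highest upper bound was 1.47-fold (Dhcr7) and the lowest lower bound 0.712-fold (Fads1). Without CCR3 replicate 4 the interval of Dhcr7 ran past 1.5-fold, to 0.595 on the log2 scale. These folds are of FPKM + 1. No member was near the floor, since the lowest value in any library was 3.98 FPKM (Tm7sf2 in CCR3 replicate 1) and the highest 414.16 FPKM (Scd1 in VEH replicate 4).

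**Figure D1:**
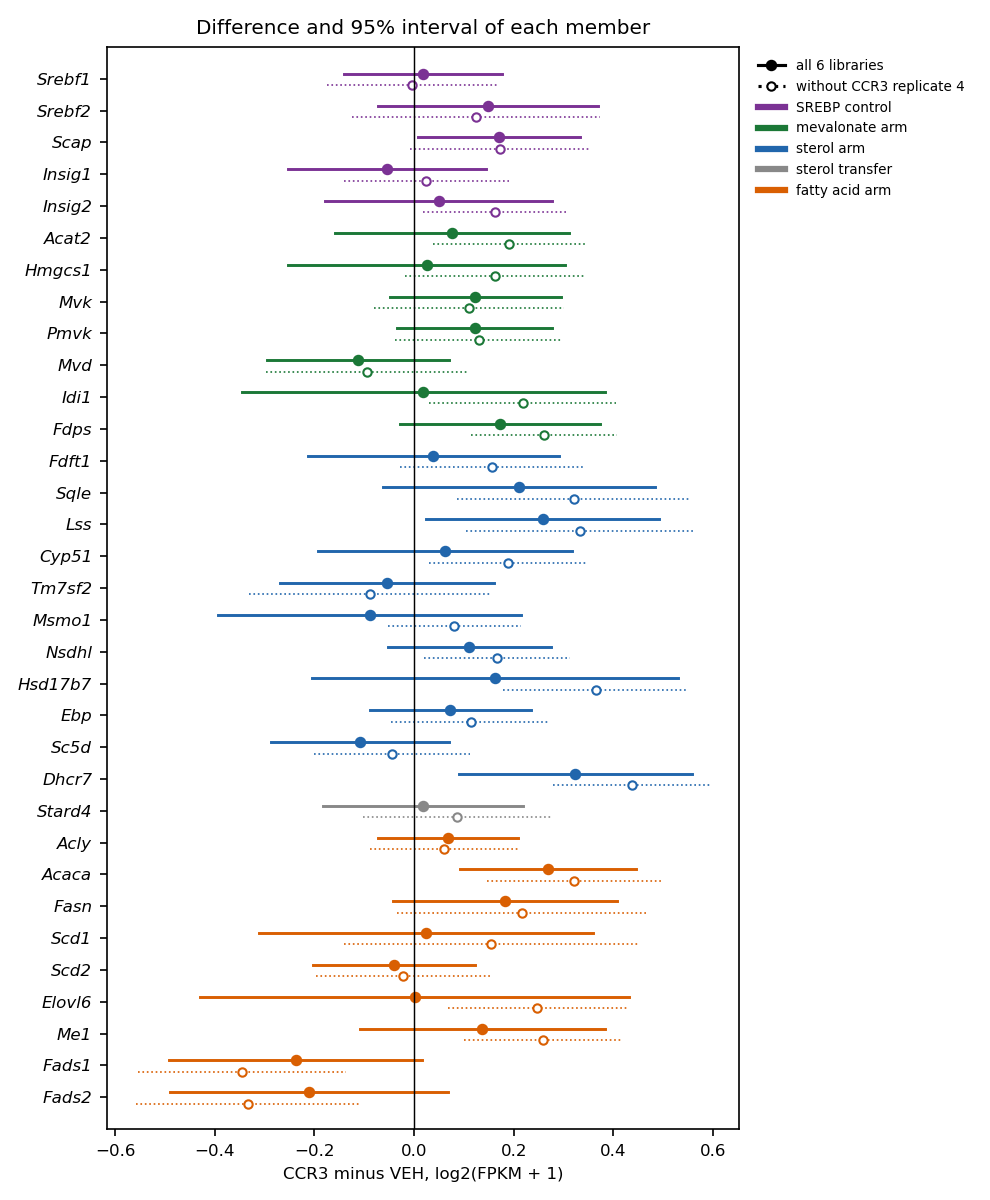
Difference of CCR3 from VEH in log2(FPKM + 1) for each of the 33 members, with its 95% interval from limma, coloured by role. Filled points use all 6 libraries and open points leave out CCR3 replicate 4; with all libraries, 29 of the 33 intervals hold 0, and with or without that library Fads1 and Fads2 lie farthest to the left.

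Among the control genes, Srebf1, the SREBP gene tied most closely to fatty acid synthesis, stood at 19.47, 21.44 and 21.45 FPKM in CCR3 replicates 1, 2 and 4, against 21.36, 19.36 and 20.82 FPKM in VEH replicates 1, 2 and 4. The ranges coincided almost wholly, with a log2 difference of 0.02 ± 0.069 (SE). Srebf2, the SREBP gene tied to sterol synthesis, stood at 27.02, 32.96 and 31.43 FPKM in CCR3, against 27.44, 29.88 and 24.82 in VEH. Its groups overlapped through CCR3 replicate 1, and it did not pass (limma adjusted p = 0.381).

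Scap, the escort of the SREBP precursors, had 22.18, 25.31 and 23.59 FPKM in CCR3, against 20.06, 21.94 and 20.81 FPKM in VEH. The groups did not overlap, though the lowest CCR3 library was only just above the highest VEH library, and the log2 difference of 0.17 ± 0.071 (SE) did not pass (limma adjusted p = 0.199). Insig1, which is itself a target of SREBP and closes the feedback loop, had 25.44, 27.72 and 22.38 FPKM in CCR3, against 26.75, 26.98 and 24.59 in VEH. CCR3 held both its highest and its lowest library, and the log2 difference was -0.05 ± 0.086 (SE). Insig2, the partner gene, had 32.62, 35.14 and 26.59 FPKM in CCR3, against 29.42, 30.49 and 30.58 in VEH. Its CCR3 replicates 1 and 2 were above all VEH libraries and CCR3 replicate 4 below all of them.

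**Figure D2:**
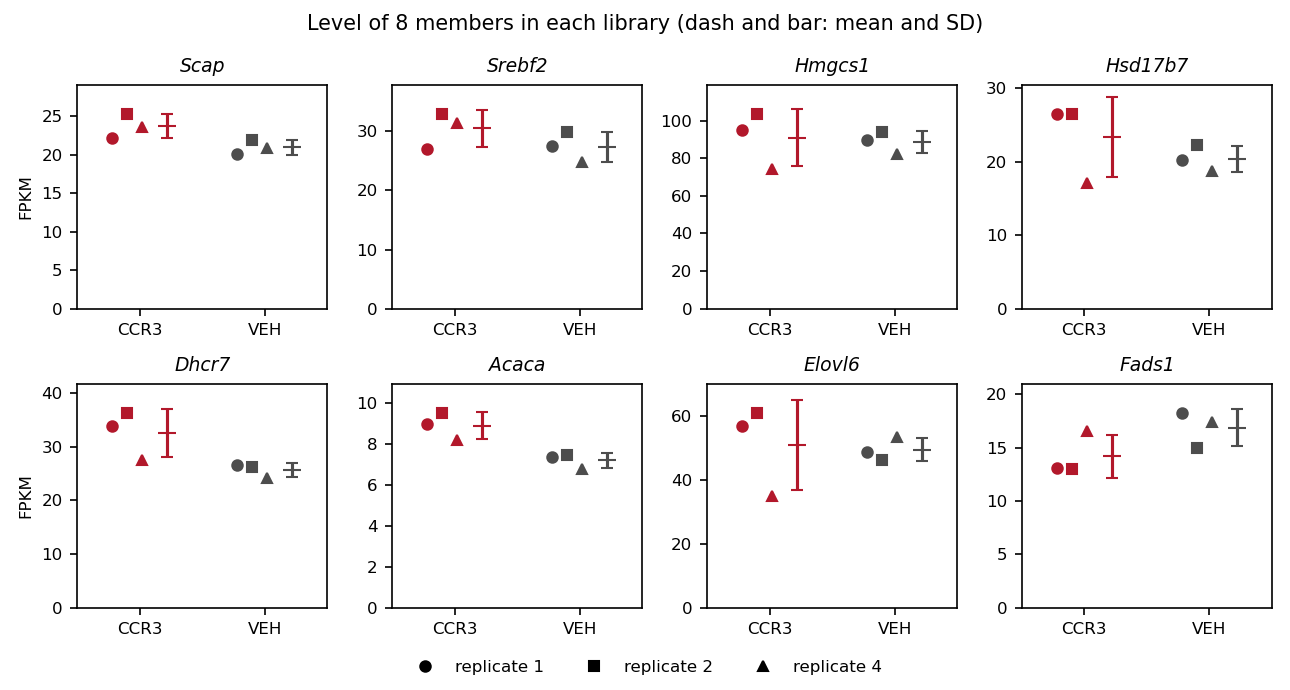
FPKM of 8 members in each library, CCR3 on the left and VEH on the right of each panel, with the mean and SD of each group (n = 3 each); marks give the replicate number. Scap, Dhcr7 and Acaca do not overlap between groups, while in Hmgcs1, Hsd17b7 and Elovl6 the triangle of CCR3 replicate 4 lies below all other libraries.

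The mevalonate arm runs from acetyl-CoA to farnesyl diphosphate. Hmgcs1, which makes HMG-CoA, had 94.92, 103.65 and 74.33 FPKM in CCR3, against 89.75, 93.94 and 82.21 FPKM in VEH. Replicates 1 and 2 of CCR3 were the highest of the 6 and replicate 4 of CCR3 the lowest, so that the group means of 91.0 ± 15.1 and 88.6 ± 5.94 FPKM (SD, n = 3 each) were close. Idi1, the isomerase of isopentenyl diphosphate, likewise had CCR3 replicates 1 and 2 on top and CCR3 replicate 4 at the bottom, with 22.65, 26.63 and 15.89 FPKM in CCR3, against 20.45, 21.73 and 20.79 in VEH.

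Fdps, which makes farnesyl diphosphate, had 104.78, 108.48 and 88.68 FPKM in CCR3, against 87.60, 93.13 and 85.92 in VEH. It had the largest log2 difference of this arm, 0.17 ± 0.087 (SE), and did not pass (limma adjusted p = 0.273). Acat2, the thiolase that begins the arm, averaged 30.7 ± 4.20 FPKM in CCR3, against 28.9 ± 1.56 in VEH (SD, n = 3 each). It has a close copy in Acat3, so short reads of the pair may be split between them and its value is uncertain. The kinase genes Mvk and Pmvk averaged 23.1 ± 1.72 and 38.2 ± 0.425 FPKM in CCR3, against 21.1 ± 1.06 and 35.1 ± 2.53 FPKM in VEH. Mvd, the decarboxylase between them and Idi1, was the member of this arm with a negative difference, at 17.0 ± 1.5 FPKM in CCR3, against 18.5 ± 1.02 in VEH.

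The sterol arm turns farnesyl diphosphate into squalene, lanosterol and cholesterol. Dhcr7, whose product carries out a last reduction on the way to cholesterol, had the largest difference of all members. It stood at 33.85, 36.25 and 27.49 FPKM in CCR3, against 26.54, 26.16 and 24.22 FPKM in VEH. Every CCR3 library was above every VEH library, with CCR3 replicate 4 closest to VEH. The log2 difference was 0.32 ± 0.102 (SE) and did not pass (limma adjusted p = 0.117). Lss, which closes squalene epoxide into lanosterol, had 18.71, 19.61 and 16.24 FPKM in CCR3, against 14.67, 17.06 and 13.48 in VEH. Its groups overlapped in 1 place, where CCR3 replicate 4 lay below VEH replicate 2, and its log2 difference of 0.26 ± 0.102 (SE) did not pass (limma adjusted p = 0.182).

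Sqle, the squalene epoxidase and a rate-limiting step of this arm, had 43.20, 50.08 and 36.78 FPKM in CCR3, against 37.41, 40.74 and 33.30 FPKM in VEH. CCR3 replicates 1 and 2 were again above all VEH libraries, and the log2 difference was 0.21 ± 0.118 (SE; limma adjusted p = 0.317). Hsd17b7, the ketosteroid reductase of the pathway, had 26.49, 26.54 and 17.10 FPKM in CCR3, against 20.28, 22.26 and 18.74 in VEH. Here CCR3 replicate 4 was below every VEH library while the other CCR3 libraries lay above all of them. Msmo1, the sterol methyl oxidase, had 129.89, 131.94 and 91.82 FPKM in CCR3, against 121.42, 124.74 and 125.19 in VEH. CCR3 replicate 4 was far below the other libraries, and the log2 difference was -0.09 with it and 0.08 without it.

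Fdft1, the squalene synthase, averaged 30.4 ± 4.24 FPKM in CCR3, against 29.4 ± 2.5 in VEH (SD, n = 3 each). The lanosterol demethylase gene Cyp51 averaged 42.4 ± 6.49 FPKM in CCR3, against 40.3 ± 2.24 in VEH. Nsdhl, the sterol dehydrogenase, averaged 13.9 ± 1.0 FPKM in CCR3, against 12.8 ± 0.296 in VEH. These 3 genes, like Ebp, the sterol isomerase (31.5 ± 1.64 FPKM in CCR3, against 29.9 ± 1.80 in VEH), had small positive differences of 0.04 to 0.11. The differences of Tm7sf2, a sterol reductase, and Sc5d, a sterol desaturase, were negative, at 4.47 ± 0.427 and 20.4 ± 1.6 FPKM in CCR3, against 4.68 ± 0.482 and 22.0 ± 1.2 FPKM in VEH. Stard4, which carries cholesterol between membranes, averaged 10.5 ± 0.992 FPKM in CCR3, against 10.4 ± 0.770 in VEH.

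**Figure D3:**
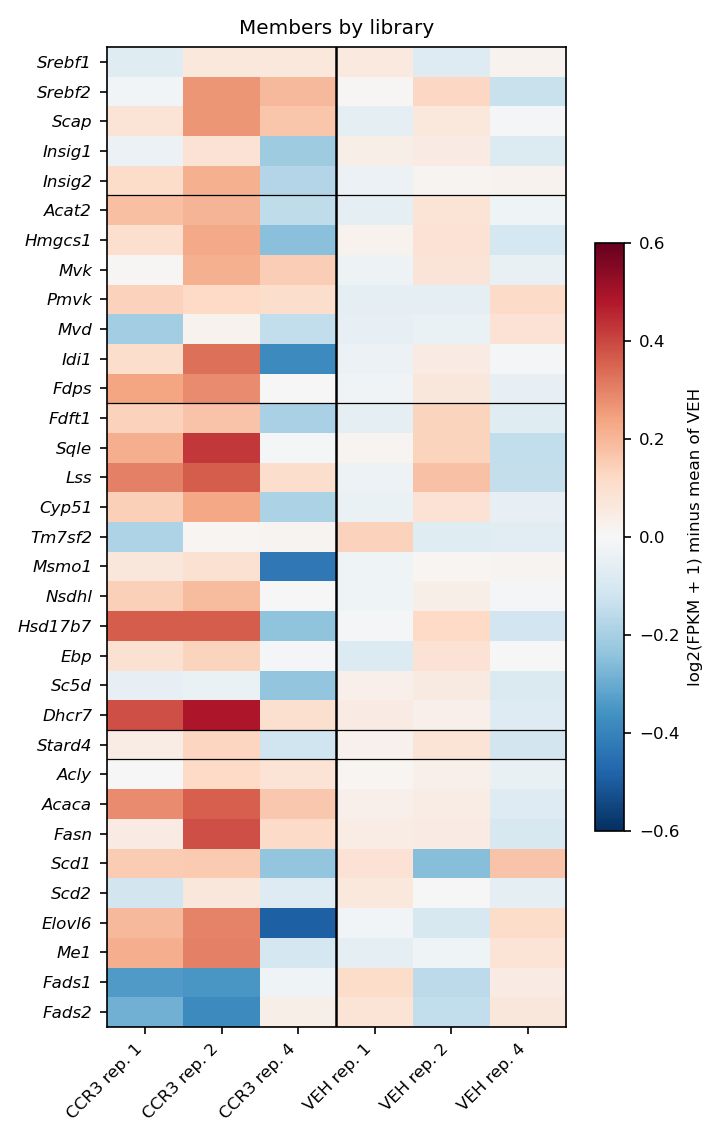
Colour map of log2(FPKM + 1) minus the mean of VEH for the 33 members (rows, by role, with lines between roles) in the 6 libraries (columns, CCR3 left of the line, VEH right). Red is above and blue below the VEH mean; CCR3 replicate 2 is the highest of the 6 libraries in 25 rows and CCR3 replicate 4 the lowest in 13.

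In the fatty acid arm, Acaca had the smallest p. It encodes the acetyl-CoA carboxylase that commits carbon to fatty acids, and had 8.96, 9.49 and 8.16 FPKM in CCR3, against 7.35, 7.45 and 6.76 FPKM in VEH. The groups did not overlap, and its log2 difference of 0.27 ± 0.077 (SE) did not pass (limma adjusted p = 0.096, the smallest of the 33 members). Fasn, the fatty acid synthase, had 15.90, 20.38 and 16.69 FPKM in CCR3, against 15.87, 15.94 and 14.31 in VEH. CCR3 replicate 2 was well above VEH and CCR3 replicate 1 lay within the VEH range, and the gene did not pass (limma adjusted p = 0.298). Acly, which supplies cytosolic acetyl-CoA, averaged 48.0 ± 2.0 FPKM in CCR3, against 45.7 ± 1.28 in VEH. Me1, the malic enzyme that supplies NADPH, averaged 28.8 ± 4.27 FPKM in CCR3, against 25.9 ± 1.34 in VEH (SD, n = 3 each).

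Scd1, the stearoyl-CoA desaturase of sebocytes and adipocytes, was the most abundant member. It had 408.72, 410.98 and 312.08 FPKM in CCR3, against 391.06, 307.61 and 414.16 FPKM in VEH. Each group held 1 library well below its other two, and the log2 difference was 0.02 ± 0.146 (SE). Its paralog Scd2, with related sequence, averaged 45.2 ± 3.05 FPKM in CCR3, against 46.5 ± 2.07 in VEH. Elovl6, the elongase of long-chain fatty acids, had 56.69, 60.85 and 34.86 FPKM in CCR3, against 48.78, 46.14 and 53.36 in VEH. It had the widest interval of the members, from -0.43 to 0.43 on the log2 scale, with CCR3 holding the highest libraries and the lowest.

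The desaturases of polyunsaturated fatty acids had the lowest differences of the members. Fads1 had 13.06, 12.98 and 16.52 FPKM in CCR3, against 18.23, 14.96 and 17.40 FPKM in VEH. CCR3 replicates 1 and 2 were below all VEH libraries, CCR3 replicate 4 was among them, and the log2 difference of -0.24 ± 0.110 (SE) did not pass (limma adjusted p = 0.237). Fads2 followed it in every CCR3 library, with 4.44, 4.09 and 5.80 FPKM, against 6.01, 4.99 and 5.95 FPKM in VEH.

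Most members spread more within the CCR3 group than within VEH. CCR3 replicate 2 was the highest of the 6 libraries in 25 of 33 members (75.8%), against 20.5% of all tested genes. CCR3 replicate 4 was the lowest in 13 members (39.4%), against 20.1% of all tested genes, and VEH replicate 4 in 9 (27.3%, against 18.1%). Among the 19 genes of the mevalonate and sterol arms with Stard4, CCR3 replicate 4 was below both other CCR3 libraries in 16, against 35.2% of all tested genes. In 14 of the 19 this held and the other CCR3 libraries were above every VEH library, against 12.4% of all tested genes. The SD was larger in CCR3 than in VEH in 29 of the 33 members, against 62.0% of all tested genes. These shares are descriptions, since the genes of 1 library share its RNA.

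**Figure D4:**
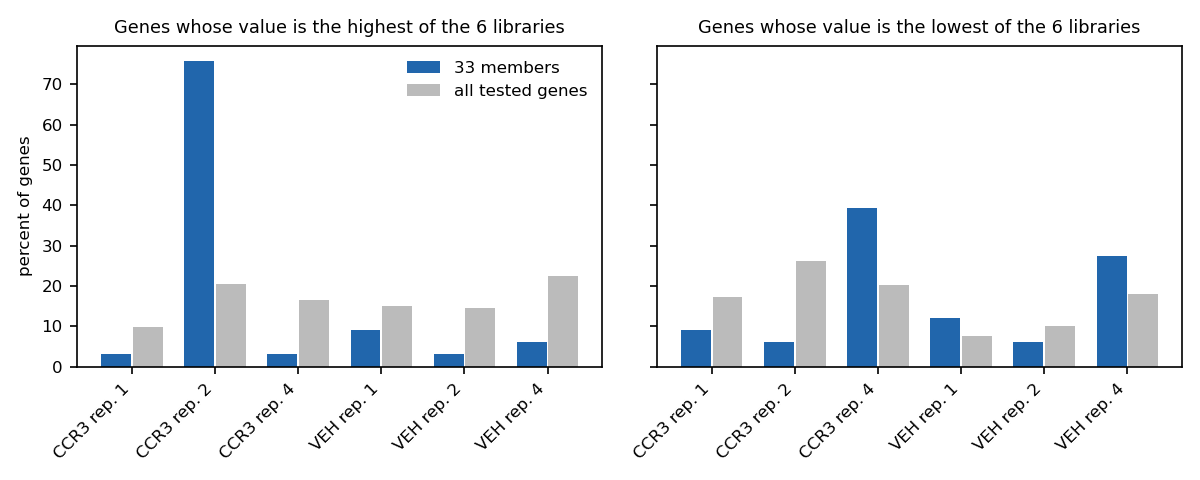
Percent of genes whose value is the highest (left) or the lowest (right) of the 6 libraries, for the 33 members (blue) and for all 13063 tested genes (grey). CCR3 replicate 2 is the highest in 75.8% of members and 20.5% of tested genes.

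Calls depended on CCR3 replicate 4. Without it, 5 members were higher and 1 lower by limma (adjusted p from 0.012 to 0.0478), and 4.27% of all tested genes were higher and 8.29% lower. The members were Dhcr7 (log2 difference 0.44), Hsd17b7 (0.36), Acaca (0.32), Fdps (0.26) and Me1 (0.26), and Fads1 on the lower side (-0.35). Over the other 13 alternatives the adjusted p of these 6 genes ran from 0.0792 to 0.88. The median difference over the 33 members was 0.16 without that library, and 26 were positive, against a median of -0.04 and 41.6% positive over all tested genes. Leaving out any other library gave no call among the members.

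Other genes of the same chemistry were set beside the members. Of 12 further genes of sterol synthesis, SREBP cleavage and turnover of the sterol sensors none passed by limma (1 higher and 1 lower at an unadjusted p under 0.05), with 9 positive and a median of 0.06, and without CCR3 replicate 4 there were 3 higher. The smallest p belonged to Erlin1, which takes part in degradation of the INSIG-bound reductase (27.3 ± 1.31 FPKM in CCR3, against 23.4 ± 0.850 in VEH), and to Rnf145, a sterol-responsive ubiquitin ligase (17.2 ± 0.592 FPKM in CCR3, against 19.8 ± 0.722 in VEH; SD, n = 3 each). In both the groups did not overlap, and neither passed (limma adjusted p = 0.105 and 0.13). Of 11 genes of branches that use mevalonate products, such as prenylation and ubiquinone synthesis, none passed and 0 were under an unadjusted p of 0.05 (median -0.04). Pdss1 and Rabggta had the smallest p, with log2 differences of -0.23 and -0.12.

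Of 27 tested further genes of fatty acid and triglyceride synthesis 1 was higher, against 1.36% of all tested genes, and 26 did not pass. Of the 27, 20 were positive, with a median of 0.07. Elovl5, the elongase that works with the Fads enzymes on polyunsaturated fatty acids, rose to 32.68, 33.30 and 34.30 FPKM in CCR3, against 27.21, 24.99 and 26.82 FPKM in VEH. The groups were far apart relative to their spread, and CCR3 replicate 4 did not stand apart (log2 difference 0.33 ± 0.0613 SE, limma adjusted p = 0.0302). With 1 library left out in turn it was called in 1 of 6 fits, that without CCR3 replicate 4, and the adjusted p ran from 0.023 to 0.111. Lpin1, a phosphatidate phosphatase, was next at 7.12 ± 0.650 FPKM in CCR3, against 5.44 ± 0.410 in VEH, short of the threshold (limma adjusted p = 0.0771). Without CCR3 replicate 4 there were 3 of these genes higher.

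Genes that take up, store or export sterols had a median of -0.14, with 9 of 13 negative and none called by limma, and 1 higher and 4 lower at an unadjusted p under 0.05. Without CCR3 replicate 4 there were 0 higher and 2 lower, Abcg1 and Scarb1. Lrp1, an endocytic receptor, averaged 64.6 ± 12.9 FPKM in CCR3, against 47.5 ± 4.36 in VEH, and Abcg1, the sterol exporter under control of LXR, 10.8 ± 2.03 FPKM in CCR3, against 13.8 ± 0.240 in VEH (SD, n = 3 each). Neither passed (limma adjusted p = 0.118 and 0.141). Of 15 tested genes of fatty acid oxidation 14 were negative (median -0.08), none was called by limma, and 2 were lower at an unadjusted p under 0.05, Acads and Slc25a20 (log2 differences -0.32 and -0.22). Without CCR3 replicate 4 there was 1 lower.

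Markers of the cells that make lipid in skin differed between the same libraries. The mean of the 11 genes of the sterol arm, on the log2(FPKM + 1) scale relative to the VEH mean, was 0.15, 0.22 and -0.10 in CCR3 replicates 1, 2 and 4, and lay between -0.07 and 0.07 in VEH. The same mean over 10 sebocyte markers was 0.34, 0.33 and -0.17 in CCR3 and lay between -0.09 and 0.05 in VEH. Over 10 keratinocyte markers it was 0.24, 0.63 and 0.04 in CCR3 and lay between -0.11 and 0.16 in VEH. In all 3 lists CCR3 replicate 4 was the lowest of the CCR3 libraries. This was not particular to them. CCR3 replicate 4 was also the lowest CCR3 library in the mean of the further sterol and SREBP genes (0.03). The same held for the branches that use mevalonate products (-0.10), the further fatty acid and triglyceride genes (-0.003) and fatty acid oxidation (-0.15).

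The sebocyte genes summed to 261.91 to 396.39 FPKM in CCR3 and 296.66 to 327.52 FPKM in VEH, and the keratinocyte genes to 10696.36 to 14973.25 FPKM in CCR3 and 10412.44 to 12438.78 FPKM in VEH. None of the 10 sebocyte or 10 keratinocyte markers was called by limma, with 2 and 3 higher at an unadjusted p under 0.05. Without CCR3 replicate 4 there were 3 sebocyte markers and 1 keratinocyte marker higher. Mc5r, the melanocortin receptor of sebocytes, was 2.35 ± 0.790 FPKM in CCR3, against 1.0 ± 0.0656 in VEH, and Awat1, a wax synthase, 55.0 ± 13.6 FPKM in CCR3, against 40.8 ± 3.77 in VEH (SD, n = 3 each; limma adjusted p = 0.0565 and 0.208). The VEH libraries of Mc5r, at 0.95 to 1.08 FPKM, lay at the filter of 1 FPKM, so its difference is uncertain. Dsg3 and Trp63, the keratinocyte markers with the smallest p, had log2 differences of 0.49 and 0.38. The sebocyte list shares Scd3 and Elovl3 with the list of further fatty acid genes.

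Of 11 tested adipocyte markers 2 fell, against 2.37% of all tested genes, and 9 did not pass, with 9 differences negative and 2 positive. The genes that fell were Lpl (31.0 ± 6.65 FPKM in CCR3, against 58.0 ± 5.29 in VEH; SD, n = 3 each) and Lep (1.96 ± 0.610 FPKM in CCR3, against 3.54 ± 0.221 in VEH), with limma adjusted p = 0.0177 and 0.0462. With 1 library left out in turn Lpl was called in 4 of 6 fits, missing without VEH replicate 1 or 4 (adjusted p up to 0.0953), and Lep in 2 of 6, missing without CCR3 replicate 2 or any VEH library (up to 0.174). Without CCR3 replicate 4 there were also 2 lower. The list's median was -0.63, and its mean was -0.11, -0.86 and -0.55 in CCR3 replicates 1, 2 and 4, against values between -0.10 and 0.10 in VEH, so that CCR3 replicate 1 was close to the lowest VEH library. CCR3 replicate 2, the highest library for most members, was the lowest for adipocyte genes. Adipocyte sums were 352.01 to 723.35 FPKM in CCR3 and 669.10 to 827.94 FPKM in VEH, and Adrb3 was near 0 in both groups.

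Macrophage markers had 1 of 10 called, Mertk, higher at 10.7 ± 1.39 FPKM in CCR3, against 7.13 ± 0.718 FPKM in VEH (limma adjusted p = 0.0379). Among all tested genes 1.36% were called higher. Lyz2 averaged 985 ± 76.6 FPKM in CCR3, against 1299 ± 160 in VEH, short of the threshold (limma adjusted p = 0.108). Of the 10 macrophage markers 4 had positive and 6 negative differences, with a median of -0.13. The mean over the 10 markers was -0.07, -0.18 and 0.21 in CCR3 replicates 1, 2 and 4, against values between -0.05 and 0.06 in VEH. CCR3 replicate 4 was above both other CCR3 libraries in the means of the macrophage, T cell, fibroblast and sterol uptake lists, in 4 of the 33 members, Fads1 and Fads2 among them, and in 40.2% of all tested genes. These markers summed to 1643.05 to 2052.41 FPKM in CCR3 and 1949.91 to 2216.41 FPKM in VEH. T cell markers had 3 of 7 called, all lower (Cd3g, Cd28 and Cd4, log2 differences -0.58, -0.55 and -0.66), against 2.37% of all tested genes called lower. Cd28 was not far above the filter, at 1.48 ± 0.257 FPKM in CCR3, against 2.63 ± 0.257 in VEH. With 1 library left out in turn Mertk, Cd3g, Cd28 and Cd4 were each called in 2 of 6 fits. Calls were lost without VEH replicate 1 or 4 in all 4 of these genes, without VEH replicate 2 in Mertk, Cd3g and Cd28, without CCR3 replicate 1 in Mertk, Cd3g and Cd4, and without CCR3 replicate 2 in Cd28 and Cd4 (adjusted p up to 0.163). Of 8 fibroblast and 8 skeletal muscle markers none was called by limma, and 0 were under an unadjusted p of 0.05, with medians of -0.11 and 0.25. The muscle markers spread widely within both groups. Their mean was 0.01, 0.69 and 0.11 in CCR3 replicates 1, 2 and 4, against 0.26, -0.68 and 0.42 in VEH replicates 1, 2 and 4. Lum and Thy1 led the fibroblast list by p (-0.33 and -0.13) and Myh1 and Acta1 the muscle list (0.65 and 0.32). Without CCR3 replicate 4 there were 1 higher and 3 lower among macrophage markers, 4 lower among T cell markers, 1 lower among fibroblast markers and none among muscle markers. The part of any of these cell types in the values of the members was not tested.

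**Figure D5:**
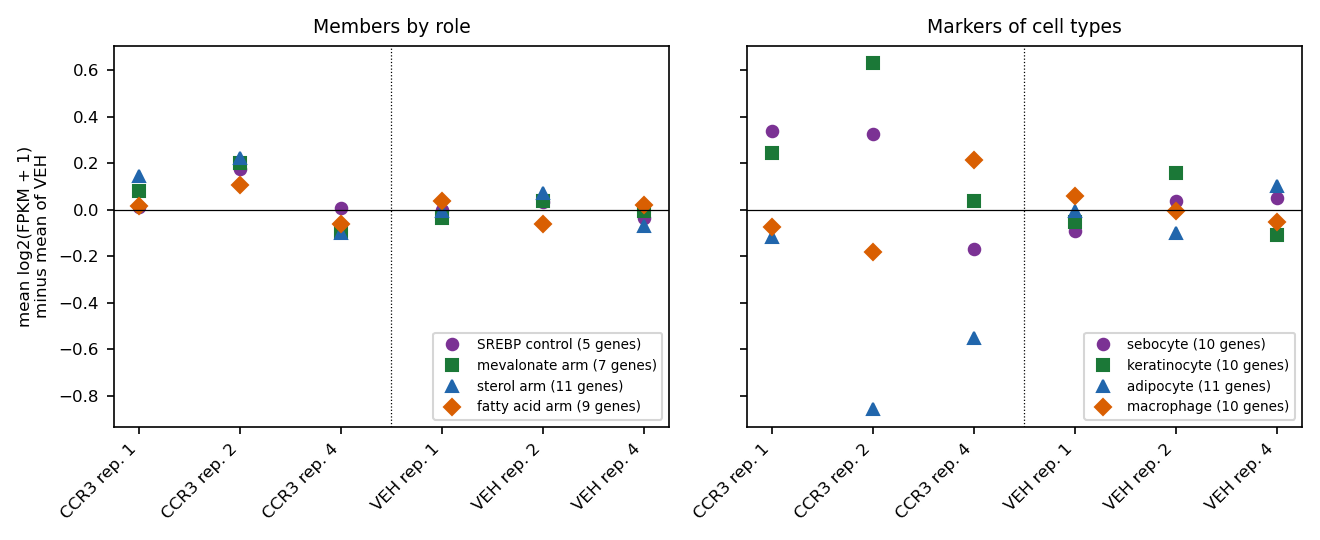
Mean of log2(FPKM + 1) minus the mean of VEH in each library, for the members by role (left) and for marker lists of 4 cell types (right), CCR3 left of the dotted line and VEH right. In CCR3 replicate 4 the sterol arm (-0.10) and the sebocyte markers (-0.17) lie below 0 and the macrophage markers (0.21) above it.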

How the data were processed

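RNA was measured in 6 skin libraries. Poly(A) RNA was selected with oligo(dT) and sequenced from 1 end for 50 bases, per the labels' protocols. The submitters' processing notes name HISAT, the aligner. Its version, the build, the gene models and the counter are not given in the sources used. The authors deposited FPKM values per gene and library, rounded to 2 decimals, with an Entrez number and a symbol; 25 symbols turned into dates were restored through the Entrez number. The table holds no counts, so depth is unknown; FPKM summed to 517764 to 553305 per library. FPKM is relative, so a rise of abundant transcripts lowers the others.

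Libraries were grouped by title. The filter asked for 1 FPKM or more in 3 libraries and kept 13063 genes, leaving out 5761. The test was limma 3.58.1 (R 4.3.3) on log2(FPKM + 1) (variance trend, 2-sided, Benjamini-Hochberg at 0.05, no replicate block). Tables and plots used Python 3.11.15 and matplotlib 3.10.9. On simulated data for this comparison (5 draws of 13063 genes, 200 changed), the share recovered was 12.2% for log2 changes of 0.3, 71% for 0.5 and 99.7% for 1, with 5.9% of calls wrong. The simulated noise was independent between genes and libraries. The members and lists were chosen with earlier results of these data known. All members are named, with values in every library for control genes, members without overlap and key enzymes; Idi1, Fdps, Lss, Hsd17b7, Msmo1, Elovl6, Fads1 and Fads2 were given in every library after their values were seen. Of other lists, genes past the threshold and the 2 with the smallest p are named. Alternatives changed the scaling (median centring, an equal FPKM sum), the filter (none, or 3 FPKM), the pseudocount (0.1), the variance trend (none, or robust) and the replicate block, and left out each library in turn.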

Additional observations from a re-analysis of the deposited data

How the results depend on the processing

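No member was called under median centring, an equal FPKM sum, either other filter (none or 3 FPKM), the pseudocount of 0.1, either other variance trend (none or robust) or the replicate block, and all 33 differences kept their sign in these 8 settings. Leaving out each library in turn gave 0 to 5 members higher and 0 to 1 lower. Over all genes it gave 28 to 558 higher and 40 to 1083 lower, and for both the lowest counts came without a VEH library. No filter gave 90 higher and 130 lower, and an equal FPKM sum 173 lower. The replicate block gave 89 and 144, with no call among members. Over all tested genes equal replicate numbers did not deviate together (r of -0.064, 0.084 and -0.03), and nothing in the labels ties them. The mean of the sterol arm, however, was highest in replicate 2 and lowest in replicate 4 in both groups (0.22 and -0.10 in CCR3, 0.07 and -0.07 in VEH). In the fatty acid arm replicate 2 was highest in CCR3 (0.11) and lowest in VEH (-0.06). Whether replicate numbers mark something shared among the members was not tested. Without 1 library, 12 members changed sign, none of them called: Cyp51 (-0.0238 to 0.19), Elovl6 (-0.15 to 0.25), Fdft1 (-0.0286 to 0.16), Hmgcs1 (-0.0744 to 0.16), Idi1 (-0.14 to 0.22), Insig1 (-0.12 to 0.0249), Insig2 (-0.0329 to 0.16), Msmo1 (-0.18 to 0.0803), Scd1 (-0.10 to 0.16), Srebf1 (-0.0212 to 0.0623), Stard4 (-0.0379 to 0.0859) and Tm7sf2 (-0.0892 to 0.0151). The cause was not tested. On simulated data with noise drawn independently for each gene and library, 12.2% of log2 changes of 0.3 were recovered. With such noise most changes of that size would not be called with 3 libraries a group. Deviations shared by the genes of 1 library were not simulated.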
